A study of Mus musculus with 10 samples.

Results

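Collagen chains are the polypeptides that wind around each other in threes to form collagen, the main protein of the extracellular matrix. Genes of the expression table whose symbol reads Col, a number, a and a number were taken, which gave 43 collagen chains of 29868 genes. They were divided into 11 fibrillar chains, the 6 type IV chains of basement membranes and 26 other chains. The question was whether their transcripts differed between infarcted mice given navarixin, an antagonist of the chemokine receptor CXCR2, and infarcted mice given saline. The transcripts of 10 libraries were sequenced, 5 labelled MI and 5 labelled MI+Nav (the Nav group). By the study's methods, both groups were wild-type C57BL/6 male mice operated on at 8 weeks of age, with myocardial infarction (MI) induced by tying the left anterior descending coronary artery. The MI group received saline and the Nav group navarixin at 1 mg/kg, each by mouth every day over 4 weeks. The sources give neither the day of sampling nor the mouse behind each library, and p-values therefore rest on variation among libraries that may be technical. No sham library was analysed here, and no level without an infarct can be given.

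Fibrillar collagens such as types I, III and V give tissue its tensile strength, are made mainly by fibroblasts, and build up in scars, including the scar that replaces heart muscle after an infarct. Type IV collagen does not form fibrils but a sheet-like network that underlies epithelia and endothelia. Its α1 and α2 chains (Col4a1, Col4a2) join in nearly every basement membrane, whereas α3, α4 and α5 (Col4a3, Col4a4, Col4a5) form the network of the glomerular basement membrane of the kidney, which podocytes make, and occur in some tubule basement membranes. The other families decorate fibrils, form beaded filaments (type VI) or sit at the border between basement membranes and the tissue around them (types XV and XVIII).

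Each value is an FPKM, a share of the fragments mapped in that library, scaled by the length of the transcript, so levels can be compared between genes. Depth, estimated from the smallest steps of the values, was 16960000 to 20820000 fragments per library. The mitochondrial genome gave 24.4 to 45.4% of a library's total FPKM. The 4 libraries with the largest of these shares were MI+Nav 2, MI 3, MI+Nav 3 and MI 4. The libraries were labelled as heart, but the markers of heart muscle were near 0. All 9 cardiomyocyte markers in the table averaged below 1 FPKM, and their sum was 0.585 to 0.874 FPKM in the MI group and 0.529 to 1.20 in the Nav group. The 7 markers of kidney tubules summed to 30483 to 57776 FPKM in the MI group and 33347 to 51664 in the Nav group. The expression in these libraries therefore goes against the tissue label, and values are given for the libraries as labelled. The labels give each group a batch of its own, so that batch and treatment cannot be told apart.

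Collagen transcripts in these libraries were mainly those of type IV. The 6 type IV chains made up 59.6 to 71.1% of the summed FPKM of all collagen chains in the MI group and 63.3 to 72.9% in the Nav group. Col4a3 had the highest mean of the 43 chains at 16.2 FPKM, followed by Col4a1 (12.9 FPKM), Col4a4 (12.6 FPKM), Col18a1 (9.70 FPKM), Col4a2 (9.02 FPKM) and Col4a5 (5.67 FPKM). Between neighbours in the order of these 6 the ranges overlapped in both groups, except those of Col4a2 and Col4a5 within the MI group. The chains of type I, which dominate scar tissue, had means of 0.954 FPKM (Col1a1) and 1.30 FPKM (Col1a2). Summed over all 43 chains, the level was 104 ± 6.34 FPKM (SD, n = 5) for MI and 67.0 ± 11.3 FPKM (SD, n = 5) for MI+Nav. The lowest MI library (94.8 FPKM) was above the highest Nav library (81.3 FPKM).

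Between the groups, 16 of the 43 chains reached 0.5 FPKM in at least 5 libraries and were tested with limma on log2(FPKM + 0.5), together with all 13412 genes that passed this filter. None of the 16 passed at an adjusted p under 0.05 (Benjamini-Hochberg over all tested genes), where 0.35% of all tested genes were lower and 0.0149% higher in the Nav group, and 0.216 and 0.00746% were also at least 2-fold lower or higher. At an unadjusted p under 0.05, 12 of the 16 were lower (4 of 5 type IV, 4 of 5 fibrillar and 4 of 6 other chains) and 0 higher, beside 11.5% of all tested genes lower and 1.25% higher. The groups did not overlap, with every Nav library below every MI library, for 4 chains (Col4a1, Col4a2, Col4a3 and Col15a1), beside 2.57% of all tested genes, and the reverse held for 0 chains and 0.268% of all tested genes. The result rested in part on MI 4. Without this library, 5 chains were lower at an adjusted p under 0.05 by limma (Col3a1, Col1a2, Col4a2, Col14a1 and Col15a1), in a fit that called 295 genes. MI 4 was the lowest MI library for each of these 5, so leaving it out was bound to enlarge their differences. With any other library left out alone, none of the chains passed, in fits that called 1 to 41 of all tested genes.

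The median log2 fold change, Nav minus MI, was -0.63 over the 5 tested type IV chains, -0.66 over the 5 fibrillar chains and -0.66 over the 6 other chains, beside -0.12 over all tested genes. All fold changes are on the log2(FPKM + 0.5) scale, which understates differences of low genes. They were below 0 for 16 of the 16 chains, beside 71.7% of all tested genes. With median-of-ratios scaling, which sets the typical gene to the same level in each library, the median of all genes was 0.012, and the medians were -0.48 for type IV, -0.55 for fibrillar and -0.56 for other chains. Of the 16, only Col8a1 then lay above 0, and 9 were lower at an unadjusted p under 0.05, with 0 higher, beside 7.88 and 7.37% of all tested genes.

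**Figure D1:**
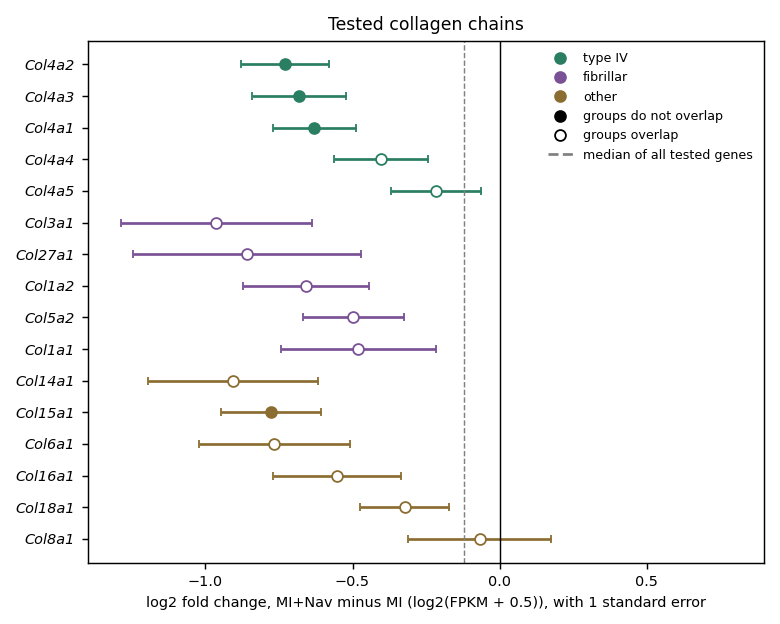
Log2 fold change (x axis, Nav minus MI on log2(FPKM + 0.5), with 1 standard error) of the 16 tested chains by class, filled where the groups do not overlap. All 16 points lie below 0 as deposited (Col8a1 turns above 0 after median-of-ratios scaling), the filled points are Col4a1, Col4a2, Col4a3 and Col15a1, and the dashed line is the median of all tested genes at -0.12.

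Col4a1 and Col4a2, the chains of the basement membrane network found in nearly all tissues, lie head to head on chromosome 8 (mm10): Col4a1 from 11198423 to 11312826 on the minus strand and Col4a2 from 11312805 to 11449287 on the plus strand. Their gene models share 22 bases at the 5′ ends. The stretch is shown because it holds the starts of 2 of the 4 chains whose groups did not overlap, as is the stretch between Col4a4 and Col4a3, which start 72 bases apart on chromosome 1 in the same arrangement. Both are printed on the plus strand from the RefSeq promoter table (GRCm38.p6) at chr8:11312777-11312856 and chr1:82586819-82586951. Capitals mark the motifs searched on both strands, which were the CCAAT box, the letters GGGCGG of a GC box and the letters TATAAA of a TATA box. No match overlapped another in the stretches printed.
Col4a2-Col4a1: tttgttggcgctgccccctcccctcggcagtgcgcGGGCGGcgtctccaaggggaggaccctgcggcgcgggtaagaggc
Col4a4-Col4a3: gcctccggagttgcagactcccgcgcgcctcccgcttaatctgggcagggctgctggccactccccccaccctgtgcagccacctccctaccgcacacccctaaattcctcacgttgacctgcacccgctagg
The first stretch held GGGCGG once and the second none of the motifs. In windows of 300 bases, 250 before and 50 after each RefSeq start, GGGCGG was found in at least 1 window of 22 of the 35 collagen chains that have a window and in 35.7% of all 32851 windows. The CCAAT letters were found for 13 of the 35 chains and in 37.4% of all windows, and TATAAA for 5 of the 35 and in 13.6%. The windows of Col4a1 and Col4a2 both held CCAAT and GGGCGG, and that of Col4a4 held none of the 3 motifs. These are matches of letters and not sites of binding.

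Col4a1 was 16.5, 15.2, 15.2, 14.4 and 17.6 FPKM in MI 1 to MI 5 and 12.2, 9.10, 10.9, 7.83 and 10.5 FPKM in MI+Nav 1 to MI+Nav 5. Each Nav library was below each MI library, and MI+Nav 4 was the lowest. The means were 15.8 ± 1.29 and 10.1 ± 1.67 FPKM (SD, n = 5), a log2 fold change of -0.63 (SE 0.142, unadjusted p = 0.000621, adjusted p = 0.0834, limma). Col4a2, its partner chain, was 11.5, 10.9, 10.9, 9.85 and 13.6 FPKM in the MI libraries and 7.63, 5.25, 7.09, 5.65 and 7.85 FPKM in the Nav libraries. The groups again did not overlap, and MI 5 was the highest library for both chains. The Nav mean of 6.69 ± 1.18 FPKM was 41.0% below the MI mean of 11.3 ± 1.40 FPKM (SD, n = 5), with a log2 fold change of -0.73 (SE 0.150, adjusted p = 0.0606, limma). Of the 16 chains, Col4a2 had the lowest p, and it passed at an adjusted p of 0.0248 without MI 4. With each library left out in turn, its adjusted p was 0.0248 to 0.191 by limma. The ratio of Col4a1 to Col4a2 was 1.29 to 1.46 in the MI group and 1.34 to 1.73 in the Nav group, with overlapping ranges.

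The bulk values do not separate fewer cells of a type from less RNA per cell. Beside Col4a1 and Col4a2, the 10 markers of endothelial cells, which rest on type IV collagen, summed to 26.6 to 74.0 FPKM in the MI group (median 63.5) and 13.1 to 37.6 in the Nav group (median 15.7). At an unadjusted p under 0.05, 10 of the 10 were lower in the Nav group, with 1 at an adjusted p under 0.05 (Robo4, an endothelial guidance receptor, log2 fold change -1.27, adjusted p = 0.0317, limma), beside 11.5 and 0.35% of all tested genes, and 0 were at 0. Their part in the collagen result was not tested.

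Col4a3, Col4a4 and Col4a5, the chains of the glomerular network, had log2 fold changes from -0.68 to -0.21, whose differences from each other were not tested. Col4a3 (chromosome 1, 82586921 to 82722059, plus strand) was 24.6, 16.8, 17.8, 25.4 and 16.3 FPKM in the MI libraries and 13.7, 11.7, 12.9, 10.2 and 12.7 FPKM in the Nav libraries. MI 1 and MI 4 stood above the other MI libraries, and the groups did not overlap. The means were 20.2 ± 4.42 and 12.2 ± 1.32 FPKM (SD, n = 5), a log2 fold change of -0.68 (SE 0.160, adjusted p = 0.0941, limma).

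Col4a4 (chromosome 1, 82448423 to 82586849, minus strand) was 16.3, 14.8, 12.3, 16.1 and 12.3 FPKM in the MI libraries and 11.4, 8.31, 9.11, 11.8 and 13.5 FPKM in the Nav libraries. MI+Nav 5 lay above MI 3 and MI 5, so the groups overlapped, and the log2 fold change was -0.40 (SE 0.160, unadjusted p = 0.0253, adjusted p = 0.321, limma). Col4a5, on the X chromosome (141475385 to 141689234, plus strand), was 6.47, 6.03, 6.03, 6.74 and 5.20 FPKM in the MI libraries and 6.43, 4.23, 4.03, 5.85 and 5.68 FPKM in the Nav libraries. Its groups overlapped, its log2 fold change of -0.21 had an adjusted p of 0.568 by limma (SE 0.153), and without the 4 libraries of highest mitochondrial share it was 0.0228. Col4a4 and Col4a5 were both lowest in MI+Nav 2 and MI+Nav 3.

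The ratio of Col4a3 to Col4a4 was 1.13 to 1.57 in the MI group (median 1.45) and 0.866 to 1.41 in the Nav group (median 1.20), with overlapping ranges. Col4a3 was 2.79 to 3.80 times the level of Col4a5 in the MI group and 1.75 to 3.19 times in the Nav group. Col4a6, which lies head to head with Col4a5, did not reach the filter and was 0.130 to 0.403 FPKM in the MI group and 0.0867 to 0.365 in the Nav group. The 7 podocyte markers summed to 22.8 to 35.2 FPKM in the MI group and 9.41 to 25.7 in the Nav group, 5 of the 7 were lower at an unadjusted p under 0.05 (11.5% of all tested genes) and 0 at an adjusted p under 0.05 by limma, and 0 were at 0. Among these 5, Wt1 passed the filter only through the MI group, which favours a lower Nav value. It was 0.530 to 0.614 FPKM in the MI group and 0.131 to 0.440 in the Nav group. The part of the podocyte markers in the values of these chains was not tested.

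**Figure D2:**
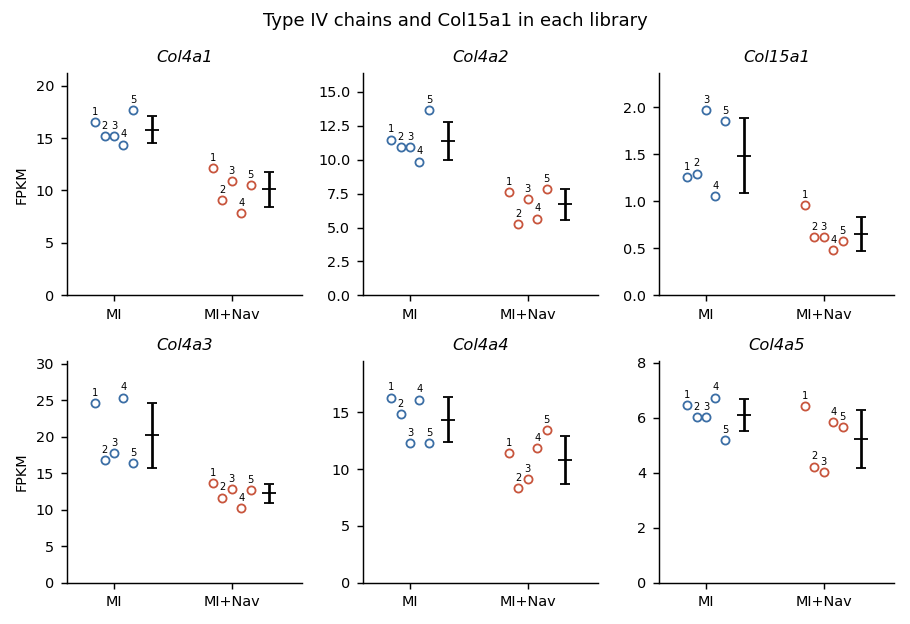
FPKM (y axis) of the 5 tested type IV chains and Col15a1 in each library (circles numbered by replicate, MI blue, MI+Nav red), with the group mean and SD (n = 5). For Col4a1, Col4a2, Col4a3 and Col15a1 every Nav circle lies below every MI circle, and for Col4a4 and Col4a5 the groups overlap.

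Among fibrillar chains, those of types I and III had the same extremes within the MI group, highest in MI 5 and lowest in MI 4. Col3a1, the chain of type III collagen (chromosome 1, 45311538 to 45349706), was 3.84, 3.91, 3.03, 0.965 and 4.70 FPKM in the MI libraries and 1.79, 0.898, 0.702, 1.36 and 2.06 FPKM in the Nav libraries. MI 4 lay among the Nav libraries and the other 4 MI libraries above all of them. The log2 fold change was -0.96 (SE 0.325, unadjusted p = 0.0113, adjusted p = 0.243, limma), and without MI 4 it was -1.28 (adjusted p = 0.00891). Over the fits with each library left out in turn, the adjusted p of Col3a1 was 0.00891 to 0.503 by limma.

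Col1a2, the α2 chain of type I collagen (chromosome 6, 4504814 to 4541544), was 2.00, 1.66, 1.81, 0.762 and 2.42 FPKM in the MI libraries and 1.09, 0.782, 0.665, 0.666 and 1.18 FPKM in the Nav libraries. Again MI 4 alone overlapped with the Nav group, and the log2 fold change of -0.66 (SE 0.214, adjusted p = 0.222, limma) was -0.85 without it (adjusted p = 0.0175). Leaving out each library in turn gave Col1a2 an adjusted p of 0.0175 to 0.468 by limma. Col1a1, the α1 chain (chromosome 11, 94936224 to 94953042), was 1.12, 0.820, 1.37, 0.491 and 2.28 FPKM in the MI libraries and 1.15, 0.485, 0.453, 0.414 and 0.961 FPKM in the Nav libraries. Its groups overlapped more widely, with MI+Nav 1 above MI 1, MI 2 and MI 4, and the difference was within the spread (log2 fold change -0.48, SE 0.263, unadjusted p = 0.0902, adjusted p = 0.461, limma). An estimated 44 to 247 fragments per library stood behind each Col1a1 value, compared with 1585 to 4078 for Col4a3.

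Col5a2, a chain of type V collagen, which takes part in starting type I fibrils, was 1.69, 0.877, 2.17, 1.66 and 1.37 FPKM in the MI libraries and 1.07, 0.896, 0.812, 0.896 and 0.945 FPKM in the Nav libraries. MI 2 lay within the Nav range and the other MI libraries above it (log2 fold change -0.50, SE 0.172, unadjusted p = 0.0120, adjusted p = 0.250, limma). Col27a1, a fibrillar chain known from cartilage, had the highest mean of the fibrillar chains at 3.48 FPKM. It was 4.07, 2.59, 7.26, 5.92 and 2.72 FPKM in the MI libraries and 4.60, 0.800, 1.00, 2.73 and 3.09 FPKM in the Nav libraries.

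Col27a1 was highest in MI 3 and MI 4, and within the Nav group it was lowest in MI+Nav 2 and MI+Nav 3. Its log2 fold change of -0.86 (SE 0.389, unadjusted p = 0.0472, adjusted p = 0.384, limma) turned to 0.13 without MI 3, MI 4, MI+Nav 2 and MI+Nav 3, the libraries of highest mitochondrial share. Without MI+Nav 1, MI+Nav 4 and MI+Nav 5 it was -1.75 (adjusted p = 0.0466, limma). These 3 were the highest Nav libraries for Col27a1, so a larger fall followed from leaving them out. Only MI+Nav 2 and MI+Nav 3 then stood for the Nav group, and 27.8% of all tested genes were lower at an unadjusted p under 0.05 by limma. The urothelial gene Upk3a was 38.4, 32.9 and 31.2 FPKM in MI+Nav 1, MI+Nav 4 and MI+Nav 5, compared with 2.11 and 1.83 FPKM in MI+Nav 2 and MI+Nav 3 and 3.23 to 7.06 FPKM in the MI group. The 9 markers of urothelium and duct epithelium summed to 84.7 to 99.9 FPKM in the MI group and 59.8 to 266 in the Nav group, with 0 of 9 past an unadjusted p under 0.05 by limma and 0 at 0. Their part in the Col27a1 values was not tested.

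The 10 fibroblast markers summed to 13.7 to 35.0 FPKM in the MI group (median 31.4) and 10.6 to 33.7 in the Nav group (median 23.4), and 0 were at 0. Of the 8 that were tested, 3 were lower at an unadjusted p under 0.05 (11.5% of all tested genes) and 0 at an adjusted p under 0.05 by limma. In MI 4, the library lowest for the type I and III chains within its group, the matrix proteoglycan Dcn was 1.11 FPKM, compared with 3.93 to 4.96 FPKM in the other MI libraries. The 8 markers of pericytes and smooth muscle summed to 16.9 to 37.7 FPKM over the MI libraries and 19.9 to 77.8 over the Nav libraries. Of the 6 tested genes of this list, 2 passed an unadjusted p under 0.05 by limma as lower and 3 as higher, beside 11.5 and 1.25% of all tested genes. Pdgfrb, a receptor of pericytes, fell at an adjusted p of 0.0317 by limma (log2 fold change -1.11). The 3 higher genes were Acta2, Myh11 and Rgs5, with log2 fold changes of 1.32, 1.18 and 0.42. Their adjusted p was 0.161, 0.0703 and 0.328 by limma, and for Myh11 every Nav library lay above every MI library. The 9 leukocyte markers in the table summed to 11.9 to 19.3 FPKM over the MI libraries and 7.81 to 9.64 over the Nav libraries. Of the 4 that were tested, 3 were lower at an unadjusted p under 0.05 (11.5% of all tested genes) and 0 at an adjusted p under 0.05 by limma. The part of these markers in the fibrillar values was not tested.

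**Figure D3:**
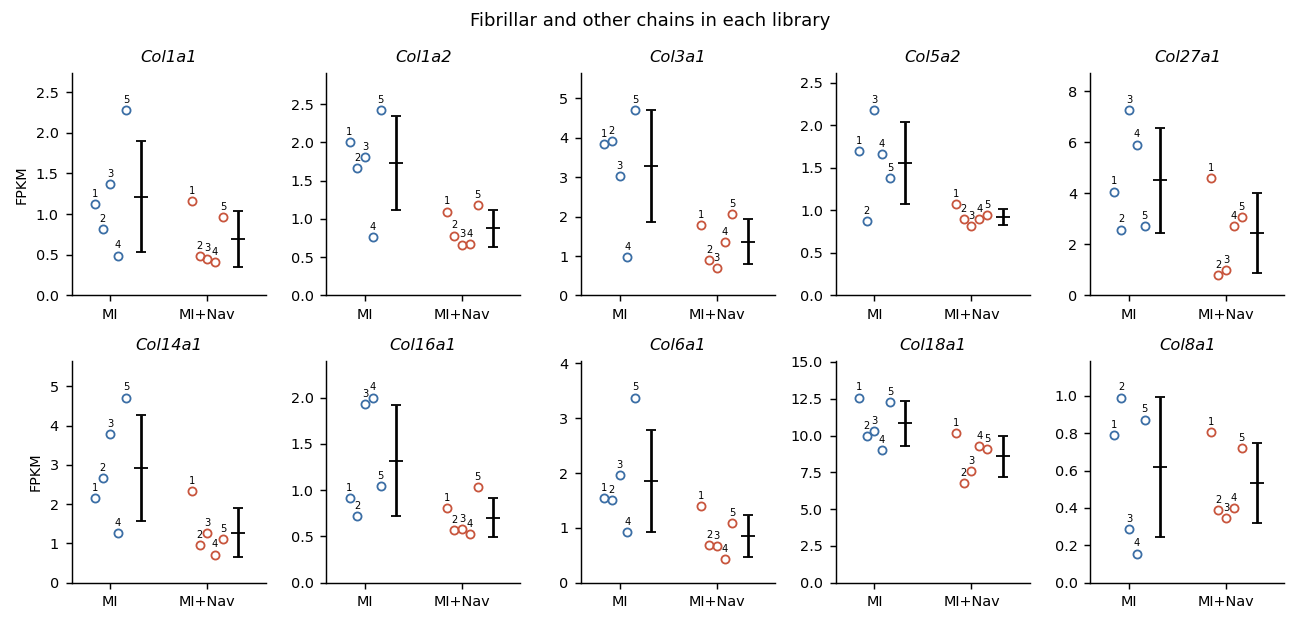
FPKM (y axis) of the 5 tested fibrillar chains (upper row) and of 5 other chains (lower row) in each library (circles numbered by replicate, MI blue, MI+Nav red), with the group mean and SD (n = 5). MI 4 lies within the Nav range for Col1a1, Col1a2, Col3a1, Col6a1 and Col14a1, and MI 3 and MI 4 are the highest libraries for Col16a1 and Col27a1.

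The remaining tested chains belong to families that connect fibrils and basement membranes. Col15a1, the chain of type XV collagen at the outer face of basement membranes of capillaries and muscle (chromosome 4, 47208161 to 47313167), was 1.26, 1.30, 1.97, 1.06 and 1.85 FPKM in the MI libraries and 0.958, 0.623, 0.619, 0.479 and 0.579 FPKM in the Nav libraries. Its groups did not overlap, although MI+Nav 1 came close to MI 4. The Nav mean of 0.652 ± 0.181 FPKM was 56.2% below the MI mean of 1.49 ± 0.401 FPKM (SD, n = 5), with a log2 fold change of -0.78 (SE 0.170, unadjusted p = 0.000491, adjusted p = 0.0748, limma) that passed without MI 4 (adjusted p = 0.0182). With each library left out in turn, the adjusted p of Col15a1 was 0.0182 to 0.212 by limma. The 150 bases before its RefSeq start, shown as those of the fourth chain without overlap (chr4:47207862-47208011, plus strand, same RefSeq table), held none of the 3 motifs. This start lies upstream of the start of the gene in the expression table.
Col15a1: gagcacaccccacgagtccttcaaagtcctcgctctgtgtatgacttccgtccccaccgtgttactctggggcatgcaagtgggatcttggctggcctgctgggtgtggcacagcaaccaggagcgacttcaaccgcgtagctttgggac
Col18a1, the related chain whose end is released as endostatin, was 12.6, 9.97, 10.3, 8.99 and 12.3 FPKM in the MI libraries and 10.2, 6.79, 7.56, 9.30 and 9.09 FPKM in the Nav libraries. The groups overlapped and the difference did not pass (log2 fold change -0.32, SE 0.151, unadjusted p = 0.0518, adjusted p = 0.394, limma).

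Col14a1, which binds the surface of fibrils, was 2.15, 2.67, 3.79, 1.27 and 4.72 FPKM in the MI libraries and 2.34, 0.958, 1.27, 0.718 and 1.12 FPKM in the Nav libraries. MI 1 and MI 4 lay within the Nav range (log2 fold change -0.91, SE 0.288, adjusted p = 0.217, limma), and without MI 4 the chain passed at an adjusted p of 0.0353. Leaving out each library in turn gave Col14a1 an adjusted p of 0.0353 to 0.419 by limma. Col6a1, a chain of the type VI beaded filaments around cells, was 1.54, 1.51, 1.96, 0.916 and 3.37 FPKM in the MI libraries and 1.40, 0.684, 0.668, 0.435 and 1.08 FPKM in the Nav libraries. MI 4 was again the lowest MI library and MI 5 the highest (log2 fold change -0.77, SE 0.257, unadjusted p = 0.0103, adjusted p = 0.237, limma).

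Col16a1, a fibril-associated chain, had other extremes. It was 0.912, 0.720, 1.93, 2.00 and 1.04 FPKM in the MI libraries and 0.805, 0.573, 0.579, 0.528 and 1.04 FPKM in the Nav libraries, highest in MI 3 and MI 4 (log2 fold change -0.55, SE 0.218, unadjusted p = 0.0244, adjusted p = 0.320, limma). Col8a1, a short chain of vessel wall networks, was 0.791, 0.990, 0.285, 0.155 and 0.873 FPKM in the MI libraries and 0.804, 0.390, 0.345, 0.398 and 0.719 FPKM in the Nav libraries. Its lowest values were in MI 3 and MI 4, the groups overlapped throughout, and the log2 fold change was -0.068 (SE 0.242, adjusted p = 0.936, limma) and 0.0236 after median-of-ratios scaling. It passed the filter with 5 libraries, and an estimated 15 to 96 fragments per library stood behind it.

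**Figure D4:**
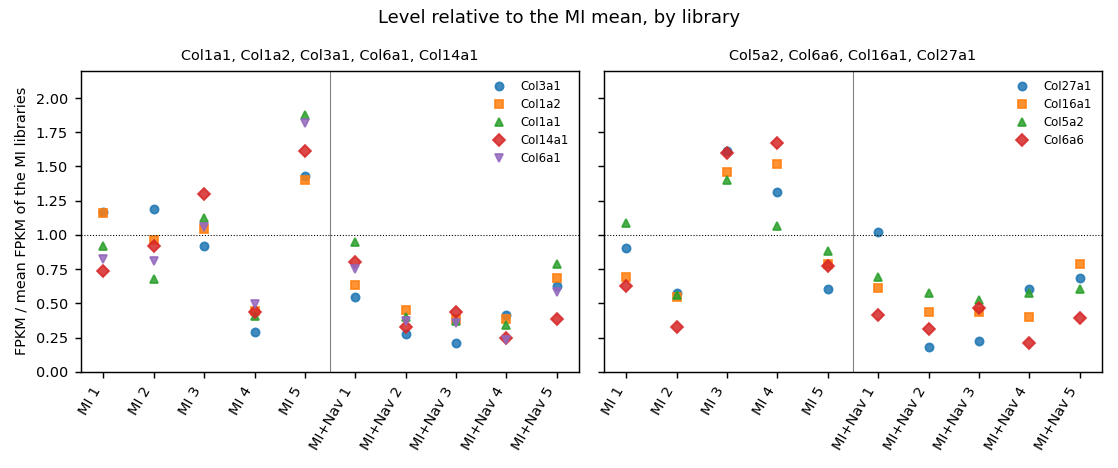
Level in each library relative to the mean of the 5 MI libraries (y axis, ratio of FPKM, with 1 as the dotted line) for 9 chains, placed in the panels after their values were seen. In the left panel (Col1a1, Col1a2, Col3a1, Col6a1, Col14a1) MI 5 is the highest and MI 4 the lowest of the MI libraries, and in the right panel (Col5a2, Col6a6, Col16a1, Col27a1) MI 2 is the lowest.

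The 27 chains that did not reach the filter had means of at most 0.505 FPKM, 15 of them below 0.1 FPKM, and 13 were listed at 0 in at least 1 library. The highest was Col6a6, a chain that can take the place of Col6a3 in type VI collagen, with 0.468, 0.243, 1.19, 1.24 and 0.572 FPKM in the MI libraries and 0.307, 0.235, 0.344, 0.156 and 0.293 FPKM in the Nav libraries. Col6a6 reached 0.5 FPKM in 3 libraries and Col6a3 in 4, where the filter asked for 5. Col8a1, with a mean of 0.575 FPKM, lay just inside with 5 libraries. Col6a6 shared its highest libraries, MI 3 and MI 4, with Col16a1 and Col27a1. The type VI chains Col6a2 and Col6a3, partners of Col6a1, ranged from 0.149 to 0.742 and from 0.342 to 1.04 FPKM in the MI group and from 0.198 to 0.374 and from 0.165 to 0.347 FPKM in the Nav group. Col2a1, the main fibrillar chain of cartilage, was listed at 0 in 8 libraries, Col9a1 in 8 and Col9a2 in 9, each with at most an estimated 2 fragments in the others. Over all 43 chains, the Nav mean was below the MI mean for 33 (10 of 11 fibrillar, 6 of 6 type IV and 17 of 26 other chains), beside 66.3% of all 29868 genes. Those with the higher Nav mean were low, the highest being Col26a1 (0.360 and 0.387 FPKM), Col23a1 (0.268 and 0.360 FPKM) and Col12a1 (0.257 and 0.276 FPKM in the MI and Nav groups).

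Genes that make, process, bind or accompany collagen were read from 4 lists with 60 genes, of which 39 were tested. None passed at an adjusted p under 0.05, and at an unadjusted p under 0.05 by limma 17 were lower with 0 higher, beside 11.5 and 1.25% of all tested genes. For 8 of the 39 the groups did not overlap, all lower in the Nav group, beside 2.57% of all tested genes lower and 0.268% higher. Without MI 4, 2 of the 39 passed at an adjusted p under 0.05, in a fit that called 295 of all tested genes. MI 4 was the lowest MI library for some of the 39, such as Sparc and Mrc2. Leaving it out was bound to enlarge the differences of these genes.

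The list of collagen synthesis and modification holds the enzymes and chaperones of the endoplasmic reticulum. Of its 18 tested genes, 5 were lower at an unadjusted p under 0.05 by limma, beside 11.5% of all tested genes. The median log2 fold change was -0.26, beside -0.12 over all tested genes, and 3 lay above 0. P4hb, a subunit of prolyl 4-hydroxylase, averaged 210 ± 26.2 FPKM (SD, n = 5) for MI and 196 ± 23.4 FPKM (SD, n = 5) for MI+Nav. Ppib, a proline isomerase, averaged 54.5 ± 6.36 and 54.0 ± 6.27 FPKM, and both differed by less than the spread between libraries. Serpinh1, a chaperone specific to collagen, averaged 25.3 ± 4.66 and 19.4 ± 2.56 FPKM (log2 fold change -0.37, SE 0.154, unadjusted p = 0.0316, adjusted p = 0.344, limma).

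In the list of procollagen processing and cross-linking, 4 of 15 genes were tested. These 4 were lower at an unadjusted p under 0.05 by limma, beside 11.5% of all tested genes. Their median was -0.75, beside -0.12 over all tested genes. Sparc, a secreted protein that binds collagen, was 23.9, 29.4, 18.7, 10.2 and 38.3 FPKM in the MI libraries and 8.84, 7.82, 8.19, 12.3 and 12.1 FPKM in the Nav libraries. MI 4 was the lowest and MI 5 the highest MI library, as for the type I and III chains, and MI 4 alone lay within the Nav range (log2 fold change -1.15, SE 0.289, adjusted p = 0.116, limma). Pcolce, which speeds the removal of the C-terminal propeptide of fibrillar procollagens, was 7.94 to 10.5 FPKM in the MI group and 4.29 to 7.91 in the Nav group. Pxdn, the peroxidase that cross-links type IV collagen, was 1.56 to 2.87 FPKM in the MI group and 0.953 to 1.53 in the Nav group. For both the groups did not overlap, though the highest Nav library of each came close to the lowest MI library. The log2 fold changes of Pcolce and Pxdn were -0.57 and -0.54 (adjusted p = 0.168 and 0.195, limma).

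Of the collagen receptors, 4 of 11 were tested, with a median of -0.20, beside -0.12 over all tested genes. The integrin chains Itgb1 and Itga1 and the receptor kinase Ddr1 had log2 fold changes of -0.033, -0.22 and -0.19, and their groups overlapped. Mrc2, an endocytic receptor for collagen that was singled out after its values were seen, was 1.55, 2.02, 2.15, 1.00 and 3.13 FPKM in the MI libraries and 0.724, 0.566, 0.561, 0.896 and 0.581 FPKM in the Nav libraries. Its groups did not overlap (log2 fold change -1.03, SE 0.208, adjusted p = 0.0544, limma).

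The partners of type IV collagen in basement membranes are the laminins, nidogens, perlecan and agrin. Of 15, 13 were tested, and 7 were lower at an unadjusted p under 0.05 by limma, beside 11.5% of all tested genes. The median was -0.58, beside -0.63 for the type IV chains and -0.12 over all tested genes, and 2 lay above 0. Agrn, a heparan sulfate proteoglycan, was 7.27 to 14.2 FPKM in the MI group and 4.71 to 10.6 in the Nav group, and the laminin chains Lamb1 and Lama5 averaged 7.48 and 6.39 FPKM in the MI group and 6.62 and 4.08 FPKM in the Nav group. The groups of these 3 overlapped, and their adjusted p was 0.397, 0.686 and 0.425 by limma. The 5 partners without overlap, named after their values were seen, were Lama1, Lamb2, Nid1, Nid2 and Hspg2 (perlecan), each lower in the Nav group with log2 fold changes of -0.76, -0.61, -0.58, -0.58 and -0.63 and adjusted p from 0.105 to 0.210 by limma. The highest Nav libraries of Lama1 and Nid1 (1.39 and 2.31 FPKM) came close to the lowest MI libraries (1.43 and 2.37 FPKM).

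**Figure D5:**
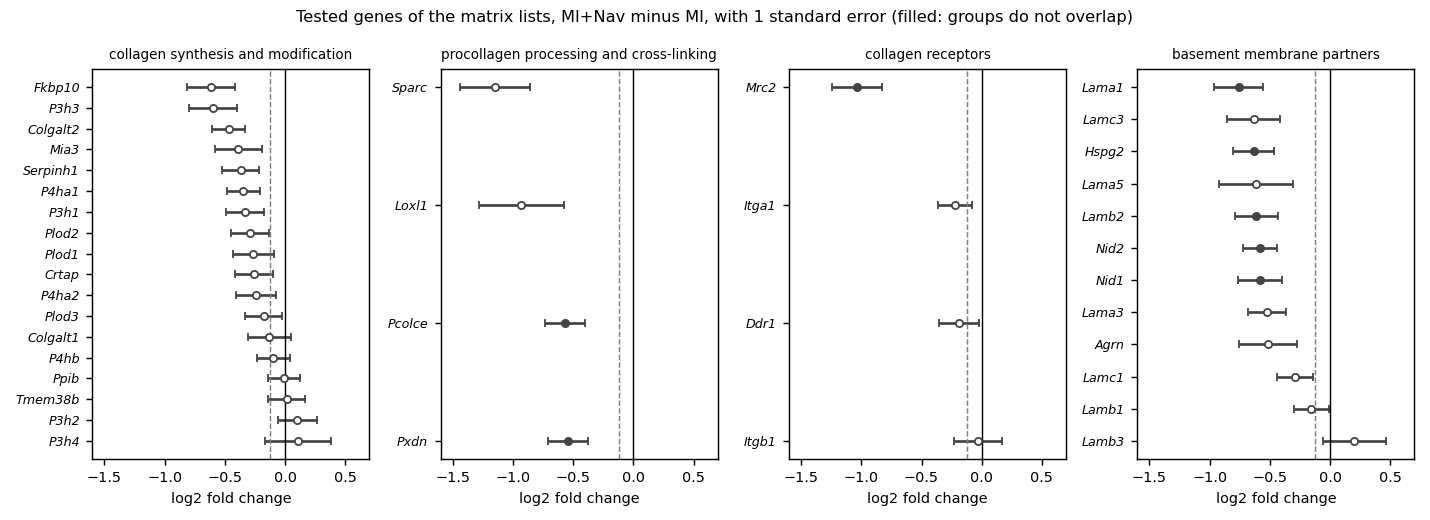
Log2 fold change (x axis, Nav minus MI on log2(FPKM + 0.5), with 1 standard error) of tested genes of the 4 matrix lists, without 1 gene that is not reported here, filled where the groups do not overlap and with the median of all tested genes dashed. The 8 filled points, Pcolce, Pxdn, Mrc2, Lama1, Lamb2, Nid1, Nid2 and Hspg2, all lie below 0, and 3 of the 18 genes of collagen synthesis lie right of 0.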

How the data were processed

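Libraries, selected for poly(A) and marked for strand, were sequenced as paired ends. By the submitters' processing notes, reads were trimmed with cutadapt 1.9, aligned to mm10 with HISAT2 2.0.4 and quantified with StringTie 1.3.4d. The authors deposited FPKM values of 29868 genes with 1 column per library. Which annotation release was used is not given in the sources. The authors named DESeq2 and edgeR, which need counts, and limma took their place. FPKM totals differ between libraries, and abundant genes lower the values of all others. Groups and replicate numbers came from the sample labels.

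The 13412 genes that reached 0.5 FPKM in 5 or more libraries were fitted by group as log2(FPKM + 0.5) with limma 3.58.1 in R 4.3.3 (lmFit, eBayes with trend and robust prior), with no block. The procedure was tested on simulated data. Depth was estimated from single-transcript genes, whose most common low value was taken as 1 fragment. No libraries were identical (correlations 0.939 to 0.985). The members and lists were chosen with earlier results of these data known. Values in every library were given for the tested type IV chains, the 5 fibrillar and 7 other chains of largest mean and chains at an unadjusted p under 0.05, and of each matrix list the 3 genes of largest mean were named. Col22a1 was not analysed here, and 1 gene of the matrix lists is counted but not reported by itself. Alternatives were other pseudocounts, filters, scalings and weights, a replicate block and each library left out in turn. Added after the data were seen were the mitochondrial share as covariate and fits without groups of libraries. Figures were drawn with matplotlib 3.10.9.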

Additional observations from a re-analysis of the deposited data

How the results depend on the processing

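Over 22 alternatives, the 16 tested chains gave 342 fold changes. Of these, 319 kept their direction and side of the threshold, 19 kept their direction and passed at an adjusted p under 0.05, and 4 turned above 0. The latter were Col4a5 (0.0228) and Col27a1 (0.13) without the 4 libraries of highest mitochondrial share, and Col8a1 after median-of-ratios scaling (0.0236) and with the mitochondrial share as covariate (0.0276). The number of chains lower at an adjusted p under 0.05 by limma, 0 in the reported fit, was 4 with array weights (Col4a1, Col4a2, Col4a3, Col15a1), 1 with the mitochondrial share as covariate (Col4a2), 2 without the 4 libraries of highest mitochondrial share (Col3a1, Col4a2), 2 without MI+Nav 1, 4 and 5 (Col4a2, Col27a1) and 5 without MI 3 and MI 4. In the same order, 378, 91, 284, 604 and 287 of all genes passed in these fits, 295 without MI 4 and 49 in the reported fit. With each library left out in turn, 0 to 5 chains passed, the 5 being without MI 4. Where a library other than MI 4 was left out, 1 to 41 of all genes passed. Over all the fits with 1 library left out, 9 to 14 chains were lower at an unadjusted p under 0.05, beside 6.89 to 13.9% of all tested genes. With no filter 19 of the 43 chains were lower at that threshold, beside 8.34% of all genes. Col4a2 passed under 6 of the 22 alternatives, with an adjusted p of 0.0126 to 0.191 over all of them. The cause of these differences was not tested.

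Among the matrix lists, the number past an adjusted p under 0.05 was 1 on a common sum without mitochondrial genes (54 of all genes), 6 with array weights, 2 without the 4 libraries of highest mitochondrial share, 5 without MI+Nav 1, 4 and 5, 3 without MI 3 and MI 4, and 0 to 2 with each library left out in turn. The last 2 came from the fit without MI 4, which called 295 of all genes. The fibrillar median was -1.12 over 4 tested chains without MI+Nav 1, 4 and 5, where that of all tested genes was -0.31. The median of the other chains was -0.0912 with no filter, where chains near 0 enter. That of all genes was then -0.040. Same-numbered libraries of the groups did not deviate together (correlations -0.223 to 0.046), which cannot show whether the replicate numbers pair them. With the replicate number as a block, 0 chains and 6 of all tested genes passed at an adjusted p under 0.05. Col4a2 then had an adjusted p of 0.136 by limma. In this fit 13 chains were lower at an unadjusted p under 0.05, beside 9.56% of all tested genes. Depth limits the low chains, such as Col8a1 with an estimated 15 to 96 fragments per library.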
